A study of Mus musculus with 3 samples.

Results

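The promoters of the cytosolic ribosomal protein genes were examined in 3 ChIP-Seq libraries of mouse embryonic fibroblasts (MEF). A gene was taken when it was annotated as protein-coding on chromosomes 1 to 19 of mm9 and its symbol was Rpl or Rps with a number and at most 1 further letter, or Rplp0, Rplp1, Rplp2 or Rpsa, so that the S6 kinases and pseudogene entries were left out. This gave 76 of 21418 protein-coding genes, with 42 of the large subunit, 31 of the small subunit and 3 of the stalk. For each gene the window of 1 kb on both sides of its outermost transcription start site (TSS) was used. The rule uses no measured value, but it was chosen with earlier results of these data known. The rule left out 4 genes of this family on chromosome X.

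The libraries were NFI ChIP in wild-type MEF, NFI ChIP in NFI-C knock-out MEF, and non-precipitated input DNA of wild-type MEF. The primary cells came from C57BL/6 embryos of 14.5 days and were used at passages 6 to 7, the knock-out was made by insertional mutagenesis, and the antibody recognises the whole NFI family, so that it does not distinguish NFI-C from the other NFI proteins that knock-out cells may hold. The labels of the knock-out library are at odds, since its title gives knock-out cells but its description gives wild-type ones, and the title was taken. There was 1 library per condition and no input of knock-out cells. No test across samples was therefore possible, and the 95% intervals given below are exact binomial intervals that cover counting error only. With at most 1 uniquely mapped tag counted per position and strand, 3350071 tags of the wild-type ChIP remained, 3132004 of the knock-out ChIP and 4100449 of the input. A window then holds on average 2.62, 2.45 and 3.21 tags, and levels are given as the fold over this genome average. Each distinct tag of the ChIP libraries had been read 2.92 and 3.45 times, against 1.32 times in the input.

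Ribosomal proteins build the small subunit, which decodes the mRNA, and the large subunit, which joins the amino acids. The stalk of the large subunit recruits the translation factors. Their genes are housekeeping genes with short, GC-rich promoters that direct transcription from a run of pyrimidines, and several carry small nucleolar RNAs in their introns. NFI proteins are a family of transcription factors that bind as dimers to a palindrome, and they can bind more weakly to 1 arm of it. H3K4me3 marks active promoters, H3K36me3 marks transcribed gene bodies, and H3K27me3 is deposited by Polycomb.

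The deposited list of in vivo NFI sites, which the authors called on the wild-type ChIP, holds 39807 sites, each 16 bases long. The centres of 17 of them lay in the windows of 17 ribosomal protein genes. Those with 4 or more tags of the wild-type ChIP in the 300 bp around them are shown here, since they rest on the most tags (plus strand of mm9, in lower case, as these bases hold no arm of the palindrome; 1 further site with 4 tags belongs to Rps14):
Rpl26, chr11:68714736-68714751: gaggtaaccgtctggc
Rpl36, chr17:56752727-56752742: tcacgggtgccgtaga
Rpl7, chr1:16094275-16094290: ggcctccgcgcggagg
Rpl34, chr3:130432701-130432716: ctcaagccctgggacg
Rpl5, chr5:108330132-108330147: gtactctgccatttga
Rps18, chr17:34092762-34092777: ttccggttcggccttc
The palindrome searched was TTGGCANNNTGCCAA, with 12 fixed and 3 free positions and at most 2 mismatches, which reads the same on both strands. It matched in 3 windows, those of Rpl39l, Rps10 and Rpl17, none of them with fewer than 2 mismatches. The first 2 matches are shown with the fixed positions that match in capitals, on the strand of the gene:
Rpl39l, chr16:10169695-10169709: cTGGCAgaaTGCCAc
Rps10, chr17:27773911-27773925: TTGGCAcaaaaCCAA
Relative to the TSS the matches lay at -617 bp in Rpl39l and at -344 bp in Rps10. Within 300 bp around them the 3 libraries together held 1 tag each, from the input at Rpl39l and from the knock-out ChIP at Rps10. The match in Rpl17 lay at 873 bp, with 2 wild-type tags, 0 knock-out tags and 1 input tag in such a stretch.

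A deposited NFI site was found in 17 of 76 windows (22.4%), while 10.7% of all promoter windows and 15.2% of those that overlap an H3K4me3-rich region held one. Mitochondrial ribosomal protein genes (19 of 76, 25%) and translation factor genes (25% of 64) had shares close to that of the cytosolic ribosomal protein genes. The sites were spread over both subunits, with 10 large subunit genes (Rpl3, Rpl5, Rpl7, Rpl7a, Rpl17, Rpl23a, Rpl26, Rpl29, Rpl34 and Rpl36) and 7 small subunit genes, Rps14, Rps15a, Rps16, Rps18, Rps19 and Rps26 among them, and none was in the window of Rplp0, Rplp1 or Rplp2. Of the 17 sites, 9 lay upstream of the TSS, 5 in introns and 3 in exons. Their positions relative to the TSS were between -388 bp (Rpl29) and 633 bp (Rps15a), and the closest was that of Rpl23a at -54 bp. The nearest site was within 5 kb for 30 members (39.5%, beside 23.6% of all promoters) and within 10 kb for 42 (55.3%, beside 33.7%). Within 5 kb the share was 38.2% for mitochondrial ribosomal proteins, 35.9% for translation factors and 31.3% for promoters in H3K4me3-rich regions. Within 10 kb these shares were 50%, 48.4% and 43.1%. For 22 genes of other ribosomal proteins and assembly factors they were 31.8% within 5 kb and 36.4% within 10 kb.

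The sites had few tags. The calling required 5 tags in 300 bp with tags shifted by 75 bp, while tags were counted here at their unshifted 5′ ends. The wild-type counts given here can therefore lie below 5. In the 300 bp around each site the wild-type ChIP held at most 6 tags (Rpl26) and the knock-out ChIP at most 4 (Rps26). The input had none at Rps18. Within 300 bp on both sides, Rpl26 reached the highest wild-type count with 10 tags, against 3 knock-out tags and 5 of the input. Rpl23a followed with 8 tags, against 1 knock-out tag and 7 of the input. Over all 17 sites the wild-type ChIP held 97 tags, the knock-out ChIP 31 and the input 122. The scaled wild-type count was above the knock-out count at all 17 of them, and at 16 in the narrower window of 300 bp, where Rps26 had 3 against 4 tags. The wild-type count chose the sites, so that the effect of this choice and a lower level in the knock-out cells cannot be told apart. The sites differed in their input. Among those with more input than wild-type tags, Rpl36, whose site lay at -84 bp, had 6 wild-type against 11 input tags within 300 bp on both sides, and Rpl7a, with its site in an exon at 187 bp, had 6 against 11. Rpl17, with a site in an intron at 472 bp, had 3 against 12, and Rps14, with a site at -82 bp, had 6 against 8. Rpl36, Rpl7a and Rpl17 belong to the large subunit. Among those with fewer input tags, Rps18, with a site in an intron at 177 bp, had 6 against 2, Rps26, with a site at -241 bp, had 6 against 2, and Rpl7, with a site in an exon at 461 bp, had 5 against 1. Rps15a (633 bp, exon) had 5 against 3 and no knock-out tag, and Rpl34 (608 bp, intron) had 7 against 6 and no knock-out tag. Scaled to the libraries, 9 of the 17 sites had more wild-type than input tags. Further sites were close between both libraries, with 7 against 9 tags at Rpl5 (618 bp, intron), 5 against 7 at Rpl3 (183 bp, intron), 4 against 5 at Rps19 (-125 bp), 5 against 5 at Rps16 (-267 bp) and 5 against 4 at Rpl29 (-388 bp).

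The knock-out ChIP and the input did not enter the calling. Their ratio at the 17 sites was 0.333 (0.217 to 0.497), beside 0.470 (0.455 to 0.486) at the 2122 deposited sites in the windows of other promoters. The interval of the 17 sites includes the 0.470 of the others. The knock-out ChIP was thus below the input at both, as it was over all member windows (0.391) and all promoters (0.337). At 5 of the 17 sites there was no knock-out tag at all, which allows up to 3 tags at each. The share of other deposited sites without such a tag was not counted. None of the 17 sites held the palindrome with at most 2 mismatches in 300 bp, and 2 of them, those of Rpl7 and Rps15a, held the letters TTGGCA or TGCCAA of a single arm. No match says only that these letters are not in this stretch. The letters were not counted at the sites of other promoters, so these counts cannot be set beside a background.

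**Figure D1:**
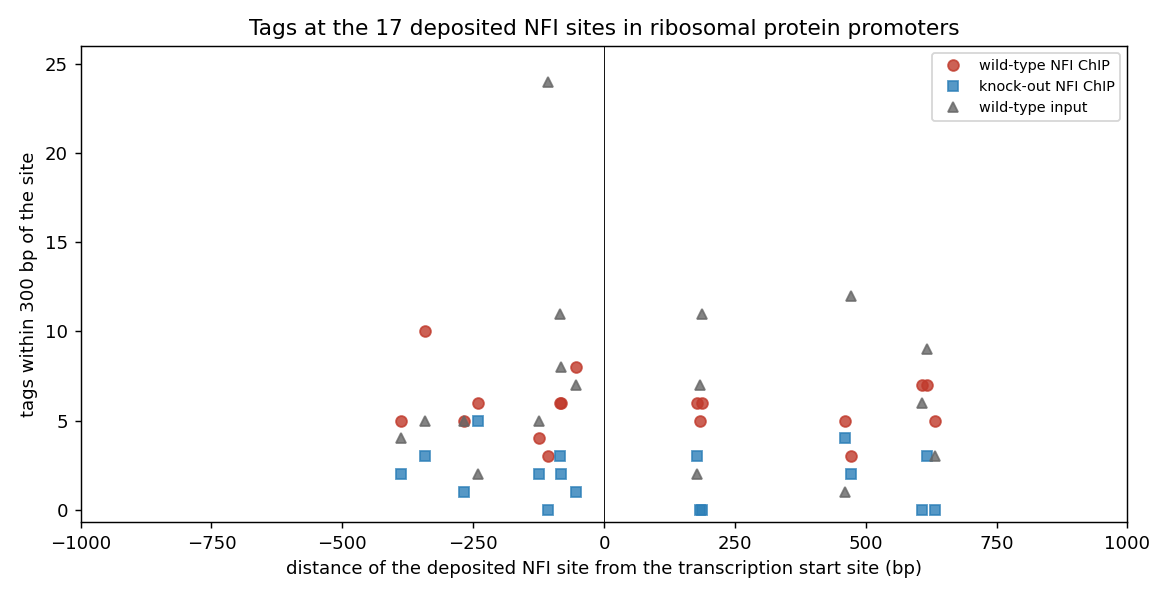
Tags within 300 bp on both sides of each of the 17 deposited NFI sites in ribosomal protein gene windows (y axis, number of tags) against the distance of the site from the TSS (x axis, bp, upstream negative). Circles are the wild-type ChIP, on which the sites were called, squares the knock-out ChIP and triangles the input; the wild-type counts reach 10 tags at Rpl26, and no knock-out count is above 5.

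Over the whole windows the members held 422 wild-type and 427 knock-out tags, against 1430 input tags. The median member had 5 wild-type tags (range 0 to 13), 5 knock-out tags (0 to 14) and 18 input tags (3 to 45). These are 1.91, 2.04 and 5.61 times the genome average. All promoters had medians of 3, 3 and 9 tags, and promoters in H3K4me3-rich regions 4, 4 and 19. The level was above the genome average at 62 members for wild-type, 63 for knock-out and 75 for input tags, the exception in the input being Rpl10l with 3 tags. Of all promoters 59.7%, 59.5% and 74.0% were above it.

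**Figure D2:**
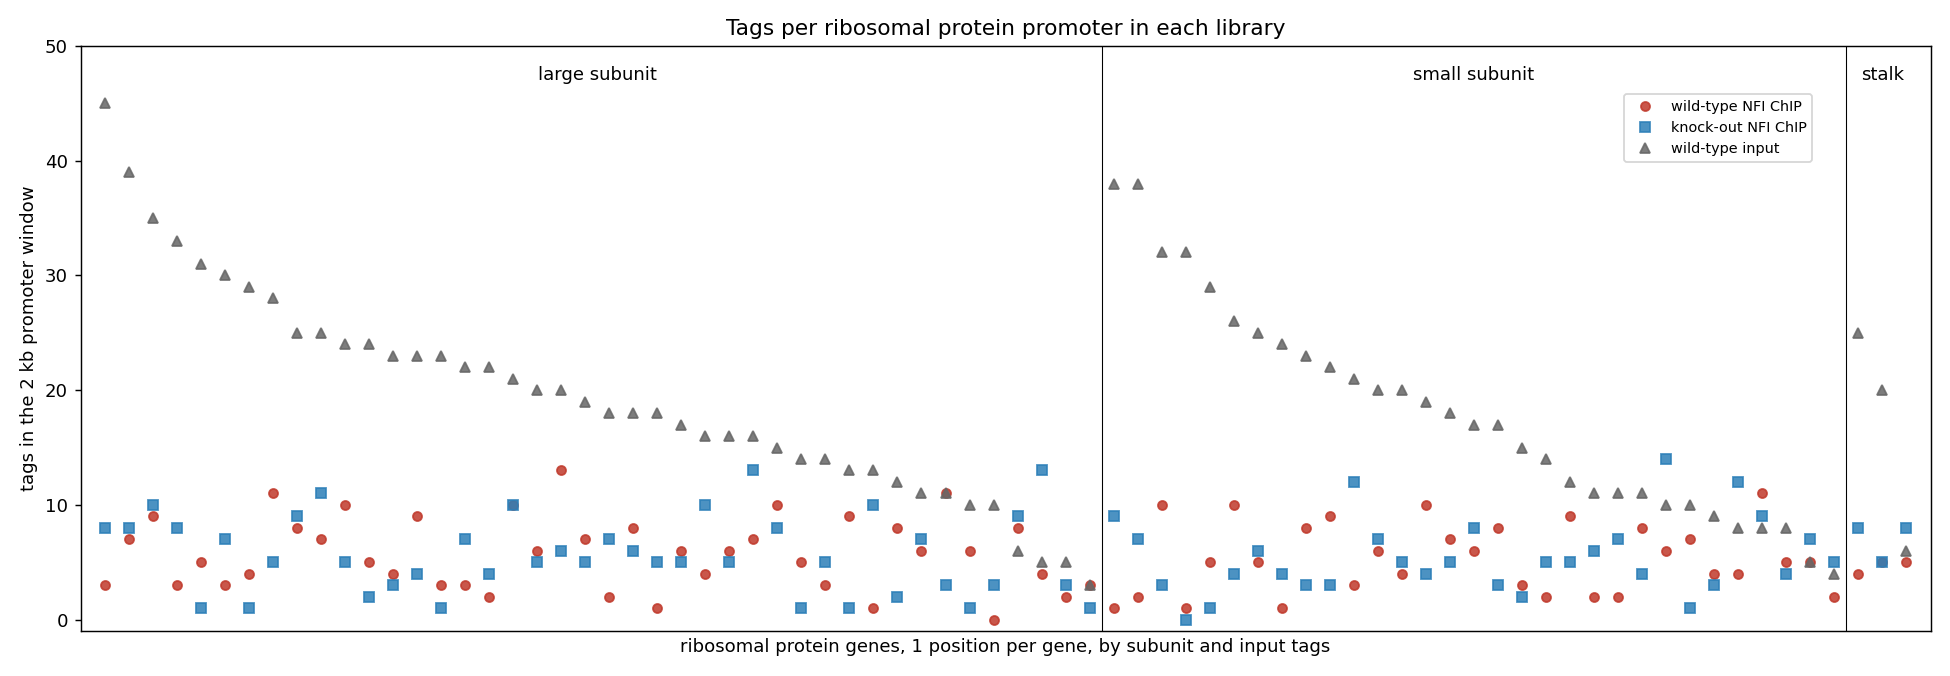
Tags in the 2 kb window (y axis) of each of the 76 ribosomal protein genes (x axis, 1 position per gene), ordered by subunit and by input tags. Circles are the wild-type ChIP, squares the knock-out ChIP and triangles the input; the input spans 3 to 45 tags while neither ChIP library passes 14.

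The input was the highest of the libraries at most members. Scaled to the genome average it exceeded the wild-type ChIP at 70 of 76 members and the knock-out ChIP at 66, beside 74.7% and 74.2% of all promoters. Among promoters in H3K4me3-rich regions the input exceeded the wild-type ChIP at 87.2%. The ratio of the wild-type ChIP to the input over all member windows together was 0.361 (0.323 to 0.403). It was 0.310 over all promoters, 0.270 (0.268 to 0.272) over those in H3K4me3-rich regions, 0.352 (0.315 to 0.392) for mitochondrial ribosomal proteins, 0.241 (0.214 to 0.270) for translation factors, and 0.288 (0.233 to 0.353) for 22 genes of other ribosomal proteins and assembly factors such as Fau, Ncl and Npm1. The ratio of the knock-out ChIP to the input was 0.391 (0.350 to 0.436) for the members and 0.337 over all promoters. It was 0.333 (0.297 to 0.374), 0.275 (0.245 to 0.307) and 0.207 (0.161 to 0.263) for the other 3 lists in the same order. The members' ratios lay above those of all promoters in both ChIP libraries, but this depended on the counting. With every uniquely mapped read counted the wild-type ratio was 0.287 (0.265 to 0.311) beside 0.307 over all promoters, and the knock-out ratio 0.355 (0.330 to 0.381) beside 0.341. Copies of the same tag count as separate there, so these intervals are too narrow. For the 62 members without another gene's TSS in the window the ratios were 0.332 (0.294 to 0.376) and 0.339 (0.298 to 0.383). The intervals include the values of all promoters, to which this filter was not applied, 0.310 and 0.337. With 2 kb on both sides the intervals also included them, at 0.454 (0.415 to 0.497) beside 0.437 for the wild-type ChIP and 0.488 (0.446 to 0.533) beside 0.458 for the knock-out ChIP. The same held for the wild-type ChIP with matches without mismatch only, at 0.299 (0.265 to 0.338) beside 0.277, and without its run 3, at 0.328 (0.289 to 0.371) beside 0.3002. It held for the knock-out ChIP with the start of transcript 001, at 0.371 (0.332 to 0.414) beside 0.334, and without Rpl13a, Rps2 and Rps10, at 0.375 (0.335 to 0.419) beside 0.337. Scaled by all promoter windows, which by construction sets the ratio of all promoters to 1, the members' ratios were 1.17 (1.04 to 1.30) in the wild-type ChIP and 1.16 (1.04 to 1.30) in the knock-out ChIP, which is the same comparison with all promoters in other units.

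The members had a knock-out over wild-type ratio of 1.08 (0.944 to 1.24), and it was 1.09 over all promoters. The interval includes 1, but it lay above 1 when every uniquely mapped read was counted (1.24, 1.14 to 1.35), with matches without mismatch only (1.23, 1.06 to 1.43), and when run 3 of the wild-type ChIP was left out (1.19, 1.03 to 1.39). The ratios of all promoters under these settings were 1.11, 1.14 and 1.12, and the latter 2 lie within the members' intervals. With every read, copies of the same tag count as separate (2.19 wild-type and 2.96 knock-out reads per member tag). That interval is thus too narrow, and whether 1.11 lies apart from the members' ratio cannot be told. The 44 members with a GC content of 50 to 55% also had an interval above 1 (1.24, 1.03 to 1.49). Other promoters in H3K4me3-rich regions had 1.08 (1.06 to 1.11) there. In the neighbouring classes the members' ratio was 0.945 (0.714 to 1.25) at 45 to 50% and 0.786 (0.555 to 1.11) at 55 to 60%. The ratio was 1.05 (0.876 to 1.26) for the large subunit, 1.08 (0.868 to 1.35) for the small subunit and 1.60 (0.778 to 3.41) for the stalk. For mitochondrial ribosomal proteins it was 0.947 (0.822 to 1.09), for translation factors 1.14 (0.985 to 1.33) and for the other ribosomal and assembly factors 0.719 (0.533 to 0.967). Over input, the large subunit had 0.360 (0.311 to 0.416) and the small subunit 0.365 (0.305 to 0.435) in the wild-type ChIP.

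**Figure D3:**
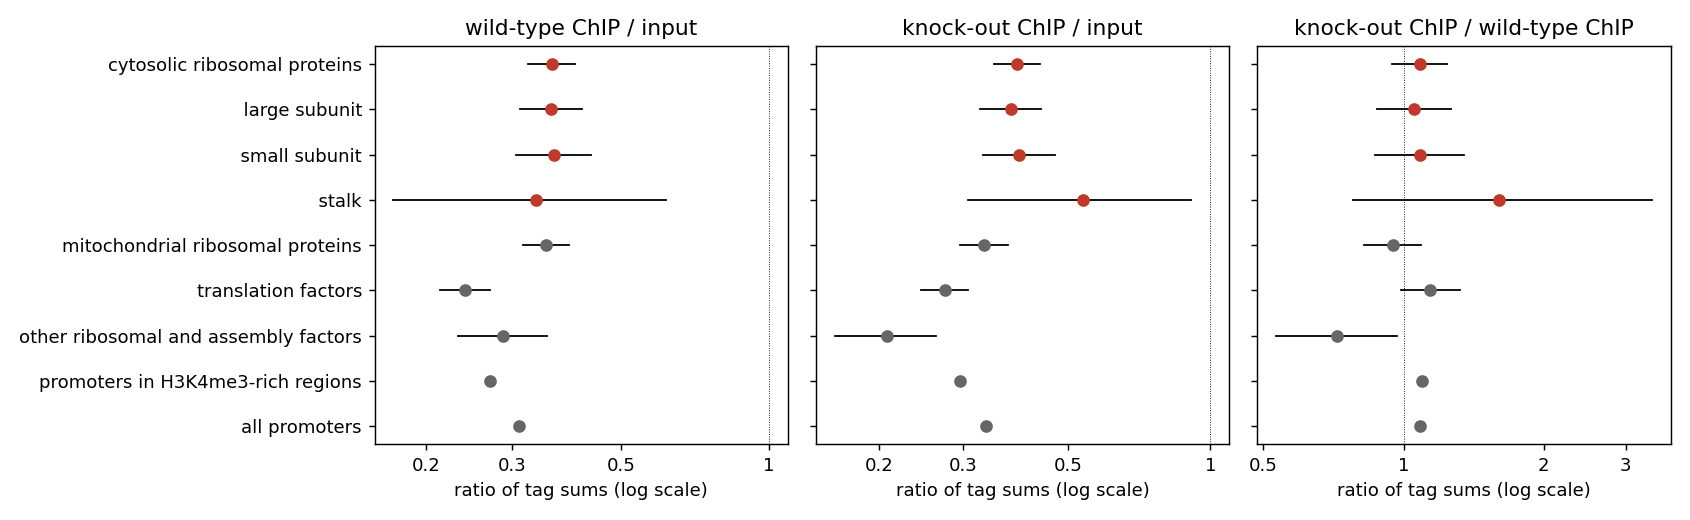
Ratio of scaled tag sums (x axis, log scale) for the cytosolic ribosomal protein promoters and their subunit groups (red) and for other gene lists (grey), with 95% counting intervals as bars, which for the longest lists are shorter than the symbol. Both ratios over the input lie below 1 in every list, and the knock-out over wild-type ratio of the ribosomal protein promoters is 1.08.

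Promoter by promoter, a fold was given only where the 2 libraries compared held at least 10 tags together, and 0.5 was added to each count for the call. None of 72 such members was at least 2-fold higher in the wild-type ChIP than in the input, and 2.94% of all promoters were. At least 2-fold lower were 47 of 72 (65.3%), beside 71.5%. In the knock-out ChIP 1 of 73 was at least 2-fold higher (background 3.13%) and 51 of 73 (69.9%) were lower (background 70.1%). Between the ChIP libraries 12 of 49 members (24.5%) were at least 2-fold higher in the knock-out ChIP and 9 of 49 (18.4%) at least 2-fold lower, and of all promoters 21.0% and 13.5%. All these shares were near those of all promoters.

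The members with the most wild-type tags were Rpl5 (ENSMUSG00000058558.6, chromosome 5, 108329521 to 108338024 in mm9), a large subunit protein that binds the 5S rRNA, with 13 tags (6 knock-out tags, 20 input tags), and Rpl3, Rpl7a and Rps18 with 11 wild-type tags each. A further 6 members had 10 wild-type tags, Rpl12, Rpl26, Rps14 and Rps20 among them. The 4 members at the top each hold a deposited NFI site, which was called on the same tags. The most knock-out tags were found at Rps28 (14 tags, with 6 in the wild-type ChIP and 10 in the input), Rpl13a and Rpl29 (13 each), and Rps12 and Rps24 (12 each). The input was highest at Rpl10a with 45 tags, against 3 and 8 in the wild-type and knock-out ChIP. Rpl19 (39 tags), Rps3a and Rps27l (38 each) and Rpl7 (35) came next. Only Rpl7, of these 5 input-rich promoters, has a deposited NFI site.

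The highest wild-type ChIP over input ratios were 1.68 (0.617 to 4.82) at Rps18, with 11 against 8 tags, 1.63 (0.497 to 5.71) at Rpl4, with 8 against 6, and 1.22 at Rpl3 (0.481 to 3.11, 11 against 11 tags) and Rps27 (5 against 5). Rplp1 (5 against 6) came next. All these intervals include 1. The lowest ratios were found at promoters with many input tags and 1 or 2 wild-type tags. They were 0.0322 (0.000795 to 0.191) at Rps27l, a paralog of Rps27, with 1 against 38 tags, 0.0382 (0.00094 to 0.229) at Rpsa, with 1 against 32, 0.0510 at Rps15, with 1 against 24, and 0.0644 at Rps3a, with 2 against 38. Rpl3l had no wild-type tag against 10 in the input, and the interval of its ratio was 0 to 0.546. With 3 tags in place of the count of 0 it was 2.72-fold lower.

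In the knock-out ChIP the single member over the fold against the input was Rpl13a (ENSMUSG00000074129.5, chromosome 7, 52380928 to 52391787), with 13 tags against 5 and a ratio of 3.40 (1.14 to 12.2). Its outermost TSS lies 7669 bp from the start of the transcript numbered 001, and around that start it had 7 wild-type against 5 knock-out tags, 10 input tags and 1 deposited site. The outermost TSS was also distant in Rps2 (1994 bp) and Rps10 (1353 bp), whose input rose from 8 to 19 tags and from 4 to 29 tags at the start of transcript 001. High ratios were also found at Rps12 and Rpl4 (1.96 each), and at Rps28 and Rps27 (1.83 each), with intervals that include 1. Rpsa, which encodes a small subunit protein also known as the laminin receptor, had 0 knock-out tags against 32 in the input. The interval of its ratio was 0 to 0.160, and with 3 tags in place of the count of 0 it was 8.15-fold lower. Rpl22, Rps6 and Rpl32 had 1 knock-out tag each against 31, 29 and 29 input tags, and Rpl35 had 1 against 23. Rps6 is the small subunit protein that the S6 kinases phosphorylate, and its ratio was 0.0451 (0.00111 to 0.272), with 5 tags in the wild-type ChIP.

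Rpl37 had the highest knock-out over wild-type ratio, with 10 tags against 1 and a ratio of 10.7 (1.52 to 464). Rps27l followed with 9 against 1 (9.63, 1.33 to 422), and then Rps24 with 12 against 3, Rpl13a with 13 against 4 and Rps12 with 12 against 4. At the other end, Rpl23a had 1 knock-out tag against 9 and a ratio of 0.119 (0.00271 to 0.858). Rpl8 (2 against 8), Rpl3 (3 against 11) and Rps15a (3 against 9) had ratios between 0.267 and 0.357, with intervals that include 1. Of these low promoters Rpl23a, Rpl3 and Rps15a hold a deposited site and were thus chosen for their wild-type tags. The stalk genes had medians of 5 wild-type and 8 knock-out tags, beside 5 and 5 over all members. Rplp0 had 5 tags in each ChIP library and 20 in its input. Rplp1 had 5 wild-type against 8 knock-out tags and 6 input tags, and Rplp2 had 4 against 8 and 25 input tags.

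Members with and without a deposited site were compared by the libraries that the calling did not use. The 17 with a site had a ratio of 0.346 for the knock-out ChIP against input (0.271 to 0.437), with a median of 5 knock-out and 19 input tags. The 59 without a site had 0.405 (0.357 to 0.458), with medians of 5 and 17 tags. The intervals overlap, and a higher knock-out level at members with a site was not detectable at this depth. Their GC content was alike (medians 53.4% and 52.4%). The median share of 32-base stretches that occur once in the genome was 88.7% with and 92.8% without a site. The part of this difference in the tag counts was not tested.

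The tags were not placed alike along the promoters in the ChIP and input libraries. In bins of 250 bp, the input peaked just downstream of the TSS, with 14.7 times the genome average (447 tags) in the first 250 bp and 11.7 times (357 tags) in the next 250 bp. The wild-type ChIP peaked just upstream, with 3.30 times (82 tags) in the 250 bp before the TSS, and fell to 2.21 times (55 tags) after it. The knock-out ChIP had the same order, with 3.31 times (77 tags) before and 2.92 times (68 tags) after the TSS. Other promoters in H3K4me3-rich regions showed the same kind of profile, with the input at 14.5 times in the first 250 bp after the TSS and the ChIP libraries at 2.05 (wild-type) and 2.31 times (knock-out) in the 250 bp before it.

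**Figure D4:**
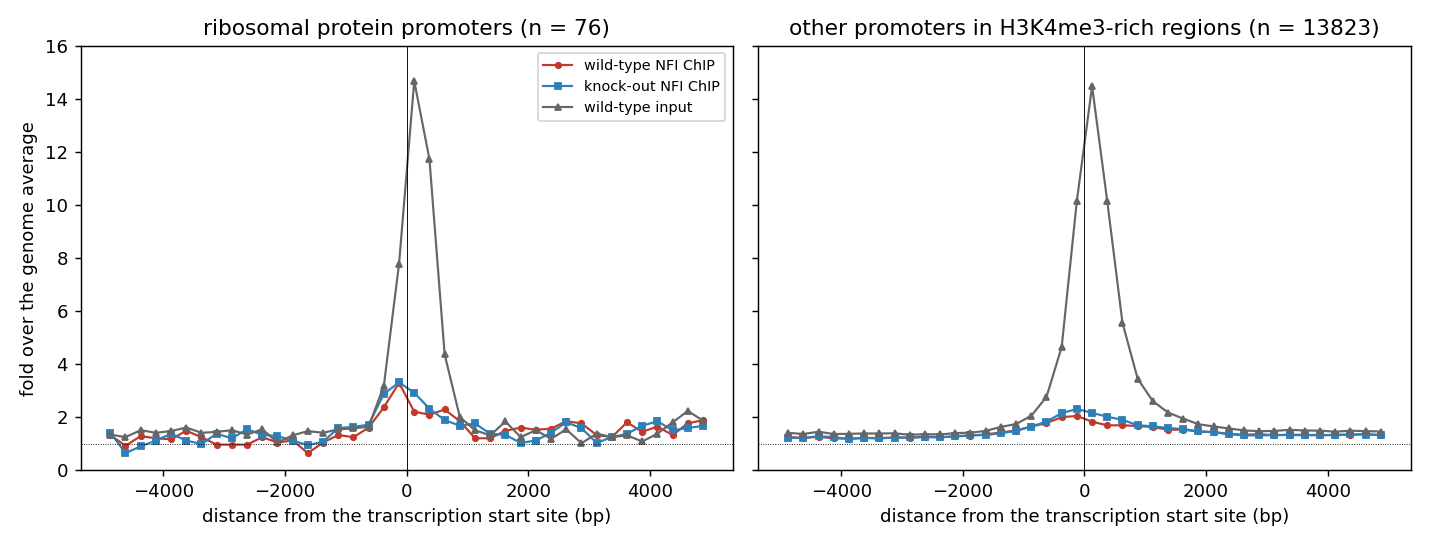
Fold over the genome average (y axis) in bins of 250 bp from 5 kb upstream to 5 kb downstream of the TSS (x axis, bp) for the 76 ribosomal protein promoters (left) and 13823 other promoters in H3K4me3-rich regions (right). Circles are the wild-type ChIP, squares the knock-out ChIP and triangles the input; at the ribosomal protein promoters the input peaks at 14.7 after the TSS and the ChIP libraries at 3.30 and 3.31 before it.

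Within 250 bp of the TSS the wild-type ChIP over input ratio was 0.246 (0.204 to 0.296) for the members, beside 0.157 (0.155 to 0.160) for other promoters in H3K4me3-rich regions. The knock-out ChIP gave 0.277 (0.230 to 0.332) beside 0.181 (0.179 to 0.184). In the remainder of the upstream kb the wild-type ratio was 0.816 (0.648 to 1.02) for the members and 0.574 (0.565 to 0.582) for the others, and the knock-out ratio 0.973 (0.780 to 1.21) and 0.595 (0.586 to 0.604). In the remainder of the downstream kb the wild-type ratios were 0.343 (0.285 to 0.411) and 0.265 (0.261 to 0.269), and the knock-out ratios 0.327 (0.269 to 0.395) and 0.294 (0.290 to 0.298). At 2 to 5 kb on both sides they were 0.957 (0.872 to 1.05) and 0.894 (0.888 to 0.9). The input was thus above the wild-type ChIP at the TSS and in the first kb downstream in both groups, and upstream in the other promoters, while the interval of the members there includes 1.

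The ratio over input also moved with GC content. Among other promoters in H3K4me3-rich regions the wild-type ratio was 0.533 at a GC content of 45 to 50%, 0.319 at 50 to 55% and 0.208 at 55 to 60%. The members had 0.656 (0.517 to 0.829, 20 genes), 0.298 (0.256 to 0.345, 44 genes) and 0.397 (0.306 to 0.510, 11 genes). In the middle class, which holds most members, the ribosomal protein promoters were therefore not above the others, and in the class of 55 to 60% they were. The knock-out ratios of the members in these classes were 0.620 (0.483 to 0.791), 0.369 (0.320 to 0.423) and 0.312 (0.232 to 0.414), beside 0.542, 0.346 and 0.237. The median GC content was 52.6% for the members and 54.0% for promoters in H3K4me3-rich regions. The part of GC content in the pooled ratios was not tested.

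**Figure D5:**
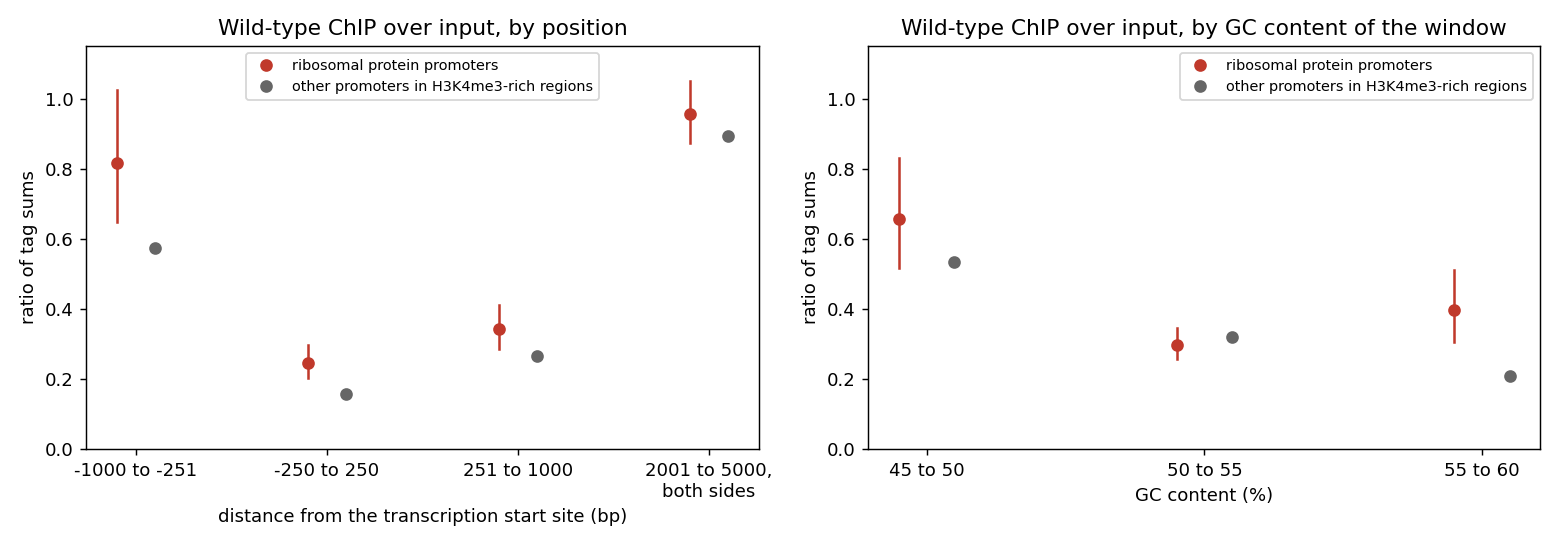
Wild-type ChIP over input (y axis, ratio of scaled tag sums) by distance from the TSS (left, bp) and by GC content of the 2 kb window (right, %), for ribosomal protein promoters (red) and other promoters in H3K4me3-rich regions (grey). Bars are 95% counting intervals; within 250 bp of the TSS the ratios are 0.246 and 0.157, and in windows of 50 to 55% GC they are 0.298 and 0.319.

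Chromatin classes were taken from deposited region boundaries. A window in an H3K4me3-rich region was found for 74 of 76 members (97.4%), beside 64.9% of all promoters, and the TSS itself was inside the region in all 74. These regions are broad, with a median length of 22212 bp at the members (4683 bp at Rpl39l to 171219 bp). H3K36me3-rich regions were met by 74 members as well (97.4%, beside 46.0% of all promoters and 67.1% of those in H3K4me3-rich regions). For mitochondrial ribosomal proteins, translation factors and other ribosomal and assembly factors the H3K4me3 shares were 98.7%, 93.8% and 100%. Their H3K36me3 shares were 100%, 89.1% and 90.9% in the same order, so that neither mark was particular to the members. H3K27me3-rich regions, which cover 40.3% of the sequenced genome, were met by 71 members (93.4%, beside 71.6% and 86.9%). Lamina-associated regions, lifted over from human cells, were met by 3 members (3.95%, beside 18.0% and 11.7%), Rpsa, Rpl10l and Rpl39l. The H3K27me3 shares of the related lists were 84.2%, 84.4% and 81.8% in the above order, and their lamina shares 14.5%, 3.13% and 9.09%.

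The 2 members without H3K4me3 were Rpl10l and Rpl3l, paralogs of Rpl10 and Rpl3 that are known from testis and from striated muscle. Rpl10l (ENSMUSG00000060499.6, chromosome 12, TSS at 67385388) had 3 wild-type tags, 1 knock-out tag and 3 input tags, and it met none of the regions but the lamina. Of its 32-base stretches 72.4% were unique in the genome. In the same order Rpl3l (ENSMUSG00000002500.8, chromosome 17, TSS at 24864774) had 0, 3 and 10 tags, and it met H3K27me3-rich and H3K36me3-rich regions. Rpl39l, a paralog of Rpl39 known from testis, had 2, 3 and 5 tags, and its H3K4me3-rich region was the shortest among the members. The broadly expressed Rpl3 had 11, 3 and 11 tags, and Rpl22, which also has a paralog, had 5, 1 and 31.

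Sequence features of the windows that the rule did not use were counted. A single arm of the palindrome (TTGGCA or TGCCAA) was present in 44 members (57.9%) and in 61.3% of all promoters. The palindrome with at most 2 mismatches was present in 3 members (3.95%) and in 7.07% of all promoters. The letters TATAAA between 40 and 20 bp upstream of the TSS were found in none of the 76 and in 2.42% of all promoters. The share was 1.18% for promoters in H3K4me3-rich regions and 0 for mitochondrial ribosomal proteins, translation factors, and other ribosomal and assembly factors. In the 250 bases before to 50 bases after the TSS, on both strands, CCGGAAG, a core of ETS factor sites, was found in 24 members (31.6%, beside 10.9% of all promoters and 15.5% of those in H3K4me3-rich regions). The shares were 35.5% for mitochondrial ribosomal proteins, 28.1% for translation factors and 45.5% for the other ribosomal and assembly factors. AAGATGG, a core of YY1 sites, was found in 8 (10.5%, beside 6.75%), and GGGCGG, a core of SP1 sites, in 34 (44.7%, beside 43.7% and 61.0%). These 3 sets of letters were chosen after the tag data had been seen. The observed over expected CpG ratio had a median of 0.686, beside 0.475 for all promoters and 0.609 for those in H3K4me3-rich regions. It was 0.598 for mitochondrial ribosomal proteins, 0.687 for translation factors and 0.667 for the other ribosomal and assembly factors.

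A run of at least 5 pyrimidines starting within 10 bp of the annotated TSS was present in 39 members (51.3%, beside 40% of all promoters). Translation factors had 48.4%, mitochondrial ribosomal proteins 43.4%, and the other ribosomal and assembly factors 40.9%. A C at the annotated TSS followed by 4 pyrimidines, the start of a terminal oligopyrimidine tract, was found in 3 members (3.95%, beside 2.10% of all promoters), Rpl14, Rpl32 and Rps21. Translation factors had 4.69%, mitochondrial ribosomal proteins 2.63%, and the other ribosomal and assembly factors 4.55% with this start. The start sequences of Rpl14 and Rps21 are shown with that of Rplp0, which lacks this start, from 40 bases before the TSS through the first 10 transcribed bases on the strand of the gene, with the longest run of at least 5 pyrimidines in or near the first bases in capitals (in Rplp0 it starts over 10 bp before the TSS and is not in the count above):
Rpl14, chr9:120480592-120480641: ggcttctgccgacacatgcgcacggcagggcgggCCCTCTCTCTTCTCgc
Rps21, chr2:179992042-179992091: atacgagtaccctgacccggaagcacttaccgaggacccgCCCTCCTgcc
Rplp0, chr5:116009436-116009485: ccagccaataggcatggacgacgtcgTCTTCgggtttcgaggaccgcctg
The annotated starts need not be exact to the base, so that this count depends on the annotation.

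Small nucleolar RNA genes lay inside 28 of the 76 genes (36.8%, beside 1.18% of all genes), 56 in all. Rpl4 held 5, and Rpl7a and Rpl13a held 4 each. The share of genes with such an RNA inside was 14.1% for translation factors and 18.2% for the other ribosomal and assembly factors. It was 0 for mitochondrial ribosomal proteins. Ribosomal protein genes have many processed copies in the genome, and reads shared with such a copy were not counted as unique. A median of 92.3% of the 32-base stretches of a member window occurred once in the genome, beside 98.5% in all promoters, and the range was 69.3% (Rpl37a) to 100%. In the first kb downstream of the TSS the median was 89.1% for the members and 100% for other promoters. The part of this difference in the tag counts was not tested. No pair of member windows overlapped, and 14 windows (18.4%, beside 13.2% of all promoters and 18.6% of those in H3K4me3-rich regions) held the TSS of another protein-coding gene, such as Med22 at Rpl7a and Vps52 at Rps18.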

How the data were processed

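ChIP-Seq reads of 3 libraries (NFI ChIP in wild-type and in NFI-C knock-out MEF, input of wild-type MEF) were analysed. Reads were mapped by the authors to mm9 with ELAND and deposited 1 read per line with match code, position, strand and mismatches, without normalization, so that tag counts were made here. In vivo NFI sites were called by the authors with ChIP-peak on the wild-type ChIP (300 bp window, 5 tags, at most 1 tag per position), and their list was used as deposited. H3K4me3-rich and other regions were rebuilt from the deposited boundary files, which pair each boundary with the closest NFI site. Genes and their TSS came from GENCODE vM1 (mm9), whereas RefSeq was used in the paper.

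Each uniquely mapped tag was placed by its 5′ end, and tags on the same strand and position were counted once. The position of reverse reads was read as the first base of their 32-base seed, which was checked against the genome. Tag sums were divided by the library total, and ratios carry exact binomial 95% intervals. PCR reads are not independent molecules, so intervals cover counting error only, and those with every read counted are too narrow even for that. A ratio of a single promoter needed at least 10 tags in both libraries together, and calls of 2-fold used 0.5 added to each count. A count of 0 was taken to allow 3 tags, and a fold computed with these 3 tags leaves out the counting error of the other library. The genome average used bases other than N.

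Named genes were those with a site, those outside H3K4me3-rich regions, the stalk genes, Rpsa, Rps6, Rpl3, 5 paralogs, the 5 with the most tags in each library, and the 5 highest and lowest of each ratio. Values of some of the genes that this rule names are not reported here. The members, lists and rules were chosen with earlier results of these data known. The comparison lists were mitochondrial ribosomal proteins (Mrpl and Mrps symbols), translation factors (Eif and Eef symbols) and a list of other ribosomal proteins and assembly factors. The ratio and its interval were tested on simulated counts with known folds. Alternatives covered tag counting, mismatches, a 75 bp shift, the window, the TSS, single members, the scaling and the sequencing runs. Python 3.11.15, NumPy 2.4.6, SciPy 1.17.1, Numba 0.67.0 and matplotlib 3.10.9 were used.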

Additional observations from a re-analysis of the deposited data

How the results depend on the processing

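The 15 results were recomputed under 131 alternatives in all. Of these 100 left a result within its interval, or a count within 1.5 times.

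The wild-type ChIP over input ratio of 0.361 moved to 0.287 with every uniquely mapped read counted, 0.299 with matches without mismatch only, 0.266 with 500 bp and 0.454 with 2 kb on both sides. The knock-out ChIP over input ratio of 0.391 moved to 0.305 with 500 bp, 0.488 with 2 kb and 0.339 for the 62 members without another gene's TSS in the window. Scaled by all promoter windows they were 1.17 and 1.16, where all promoters are at 1 by construction, so both lie above all promoters as they do when scaled to the genome average. The knock-out over wild-type ratio of 1.08 (0.944 to 1.24) ranged from 0.996 to 1.24. Its own interval lay above 1 with every read (1.14 to 1.35) and with matches without mismatch only (1.06 to 1.43). The interval also lay above 1 without run 3 of the wild-type ChIP (1.03 to 1.39). All promoters had 1.11, 1.14 and 1.12 under these settings, and the cause was not tested. With every read, copies of the same tag count as separate, so that interval is too narrow. The median level of 1.91 in the wild-type ChIP moved to 1.44 with every read and to 1.32 relative to all promoter windows, that of 2.04 in the knock-out ChIP to 1.29 relative to them, and that of 5.61 in the input to 9.35 with 500 bp, 3.51 with 2 kb and 1.2 relative to all promoter windows.

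Members with a palindrome match were 1 with 500 bp, 10 with 2 kb and 0 with at most 1 mismatch, instead of 3. Of all promoters only 0.43% had a match with at most 1 mismatch, so that 0 of 76 is near this share. For 500 bp and 2 kb the share of all promoters was not counted. For the fold counts, the share of all promoters tested stands in parentheses. Scaled by all promoter windows, 18 of 72 members were at least 2-fold higher (22.1%) and 11 lower (26.4%) in the wild-type ChIP than in the input, and of 73 in the knock-out ChIP 16 were higher (21.0%) and 9 lower (25.6%). At 1.5-fold, 2 of 72 were higher in the wild-type ChIP (5.41%) and 6 of 73 in the knock-out ChIP (6.24%) than in the input, and 15 of 49 lower in the knock-out than in the wild-type ChIP (23.2%). With every read counted, 2 of 75 were higher in the knock-out ChIP than in the input (9.44%), and of 73, where 49 passed the minimum before, 23 were higher (30.3%) and 15 lower (21.4%) than in the wild-type ChIP. With at least 20 tags required, 0 of 51 were higher in the knock-out ChIP than in the input (0.336%), and of the 4 left between both ChIP libraries 1 was higher (12.3%) and 0 lower (9.30%). The counts of 17 members with a site and 74 in H3K4me3-rich regions stayed within 1.5 times under each alternative tried. The start of transcript 001 (annotated for 53 members) was added after seeing the data. So were the members without Rpl13a, Rps2 and Rps10, and those without Rpl3l, Rpl10l and Rpl39l. All ratios and median levels stayed within their intervals, and the counts of members with a site or in H3K4me3-rich regions within 1.5 times. With transcript 001 the knock-out over input interval came to include the ratio of all promoters (0.332 to 0.414 beside 0.334). The same held without Rpl13a, Rps2 and Rps10 (0.335 to 0.419 beside 0.337). These settings were not run for the palindrome and 2-fold counts. Those counts include Rps10 and Rpl39l (palindrome) and Rpl13a, the single member at least 2-fold higher in the knock-out ChIP than in the input. No paired analysis was possible because each condition has 1 library. With medians of 5 ChIP tags per window, single promoters are compared only for large folds.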
